A study of Mus musculus with 6 samples.

Results

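The genes described here are 47 mouse genes of the G2 phase, the mitotic spindle, the kinetochore and cytokinesis, looked up by symbol from a list of G2/M and mitosis genes. All 47 were present among the 23337 gene symbols of the count files, and all 47 passed the filter on low counts that left 12899 genes for testing. The libraries came from Tomato-positive AT2 cells (alveolar type II cells), which make surfactant and act as progenitors in the lung alveolus, sorted 10 days after acute lung injury with the bacterium Pseudomonas aeruginosa. Mutant libraries (genotype SpC-CreER/Dlk1flox/ROSA-Tomato, n = 3) carried a floxed Dlk1, and wild-type libraries (SpC-CreER/ROSA-Tomato, n = 3) did not. Both groups shared the injury, the inducible Cre recombinase driven by the surfactant protein C promoter and the Tomato reporter that marks cells in which Cre acted. No uninjured group was analysed here. Age, sex, strain background and whether each library came from its own animal are not given in the labels. The p-values here therefore refer only to the spread among these samples, part of which may be technical. The labels also mention a culture of the sorted cells and leave unsettled whether it preceded RNA isolation.

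Cells that have copied their DNA enter mitosis when cyclin B activates the kinase CDK1. The spindle then forms, kinetochores attach the chromosomes to it, and a checkpoint holds back the anaphase-promoting complex (APC/C) until every chromosome is attached. Most genes of this machinery are transcribed in a wave in late S and G2 phase and are nearly silent in resting cells, so their transcripts serve as a measure of cycling cells. In the injured lung, AT2 cells re-enter the cell cycle before part of their progeny become alveolar type I cells, and this study asked how Dlk1, a membrane protein that acts on Notch signalling, bears on that process.

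The library totals were 22511461 to 30695994 counts. Dlk1 itself had 0 to 2 counts in each of the 6 libraries, so it did not check the genotype labels. The 10 AT2 markers summed to 129174 to 160022 counts-per-million (CPM) of the library total. Marker sums of all 9 other cell types were highest in mutant 1. The summed level of the 6 pan-leukocyte markers was 466 CPM in mutant 1, 12.8 and 26.4 CPM in mutants 2 and 3, and 6.32 to 25.1 CPM in the wild-type libraries. Fibroblast markers summed to 216 CPM in mutant 1 and to 3.37 to 7.14 CPM elsewhere, and club and ciliated cell markers to 7832 CPM against 555 to 821 CPM. Each of the 6 pan-leukocyte and 6 fibroblast markers was highest in mutant 1, and the 4 haemoglobin genes of the erythroid list had 0 counts in all 6 libraries. The wild-type library 2 had 184.6 CPM of Xist, the RNA that coats the inactive X chromosome, against at most 2.93 CPM in each other library. Such an Xist level is that of female cells, so wild type 2 differed in sex from the other wild types and was not their technical repeat. For the list, the roles and each named gene whose log2 fold change moved by over 1.5 times without mutant 1, the value without it is also given.

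Mitotic transcripts were rare in all libraries, and their summed level had a higher mean in the mutant group, with overlapping groups. The 47 genes together made up 0.0177% to 0.0363% of all counts. Their summed level was 339, 253 and 349 TMM-normalised CPM (scaled by the trimmed mean of M values) in mutants 1, 2 and 3. It was 182, 223 and 286 CPM in the corresponding wild types. The means were 314 ± 52.8 and 230.1 ± 52.2 CPM (SD, n = 3 each), a ratio of 1.36, or 1.31 without mutant 1. Mutant 2 lay below wild type 3. The spread within a group was of the same order as the difference between groups: wild type 3 was 1.57 times wild type 1, and mutant 3 was 1.38 times mutant 2. Within the summed means, the spindle checkpoint genes made up 81.8 CPM in the mutants and 88.9 CPM in the wild types, a ratio of 0.92. The ratios of the other roles ran from 1.19 to 2.32, so 1.36 is not the size of a typical member's difference. In such bulk samples, more dividing cells and more mitotic RNA per dividing cell cannot be told apart.

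No member passed the test. Of the 47 genes, 0 had a Benjamini-Hochberg adjusted p under 0.05 in edgeR's quasi-likelihood test, as did 0% of all tested genes, and the lowest adjusted p of a member was 0.737. DESeq2, which called 0.295% of all genes, and limma-voom also called 0 members. At an unadjusted p under 0.05, edgeR had 13 members higher in the mutant group, where 3.69% of all genes were, and 0 members lower, where 2.89% of all genes were. The members' count was 16 in DESeq2 (4.09% of all genes) and 21 in limma-voom (4.76%). It was 9 without mutant 1, where 3.01% of all genes were higher, and 13 with the number as a block, where 3.93% were. With the block, 1 member, Bub1, was lower at an unadjusted p under 0.05, where 2.79% of all genes were. The count moved with single libraries. It was 4 without mutant 3 (4.72% of all genes), 4 without wild type 2 (1.73%), 7 without wild type 1 (2.23%), 19 without mutant 2 (6.69%) and 20 without wild type 3 (3.67%). The log2 fold change of mutant over wild type was positive for 45 of 47 members, where it was positive for 51.1% of all tested genes. Its median was 0.85 over the members and 0.00 over all tested genes. Without mutant 1 it was positive for 43 of 47 (48.1% of all genes), with a median of 0.62. For 36 members it exceeded 0.5, as for 11% of all genes, and for 16 it exceeded 1, as for 6.43%.

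**Figure D1:**
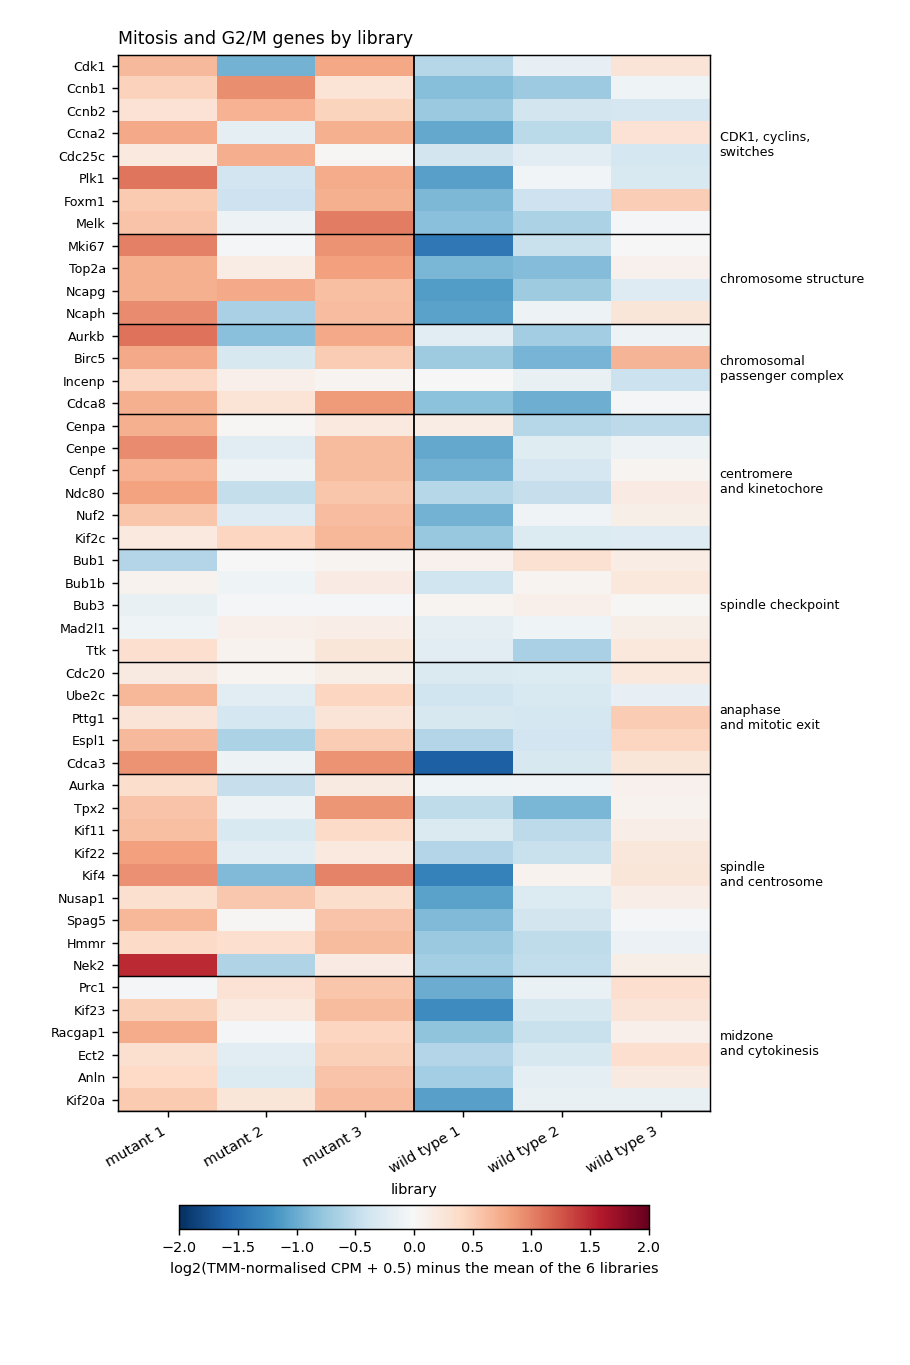
Level of each of the 47 members (rows, in blocks by role) in each of the 6 libraries (columns), as log2(TMM-normalised CPM + 0.5) minus the mean of the member's 6 values. Mutants 1 and 3 are mostly red and wild type 1 mostly blue; mutant 2 is mixed, and most of the spindle checkpoint block is pale.

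The libraries did not contribute alike. The highest of the 6 libraries was mutant 1 for 20 members, mutant 3 for 17, mutant 2 for 5, wild type 3 for 3 and wild type 2 for 2. The lowest was wild type 1 for 33 of 47 members, where it was the lowest for 19.1% of all tested genes. Mutant 3 lay above each wild-type library for 40 members (23.9% of all genes) and mutant 1 for 39 (29.7%), but mutant 2 for 12, or 25.5% of the members, against 25.7% of all genes. All 3 mutants lay above all 3 wild types for 12 members, where 5.23% of all genes did so, and below them for 2 members, where 6.43% did. With mutant 1 left out, mutants 2 and 3 both lay above each wild type for 12 members, where 11.1% of all genes did. Mutant 3 had the highest summed level of the members (349 CPM) and wild type 1 the lowest (182 CPM). Mutants carrying the same number as a wild type were above it for 45, 33 and 40 members for numbers 1, 2 and 3, where 50.5%, 49.2% and 50.2% of all genes were. How far the other cell types in mutant 1 contributed to its mitotic transcripts was not tested.

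The promoters of these genes share short sequences that the list was not chosen on. G2/M genes are known to be repressed in resting cells and activated in G2 through the cell cycle genes homology region (CHR), bound by the MuvB core of the DREAM and MYB complexes, together with CCAAT boxes bound by NF-Y. RefSeq promoter windows of 300 bases (250 before and 50 after the annotated start, build GRCm38.p6) were found by symbol for 40 of the 47 members, and for genes with several starts the first listed was read. The searched letters were TTTGAA or TTCGAA for the CHR and CCAAT for the other, on both strands, so that TTCAAA and ATTGG count as well. A CHR match was present in 30 of 40 member windows (75%), against 19.4% of all 27025 genes with a window. CCAAT was present in 30 of 40 (75%), against 37.9%, and 2 or more CCAAT matches in 21 of 40 (52.5%), against 12.2%. Both kinds were present in 27 of 40 (67.5%), against 7.7%. Within 60 bases before the start or after it, 28 of 40 members (70%) had a CHR match, against 5.86% of all genes. These are matches of letters, not measured binding.

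The windows below show 5 members with low p-values in the group comparison and Bub3, a member with nearly equal levels in all libraries. CHR and CCAAT letters are in capitals, and each sequence reads 5′ to 3′ in the direction of its gene. The windows lie at chr9:70421505-70421804 (minus strand) for Ccnb2, chr5:45669675-45669974 (plus) for Ncapg, chr11:99024140-99024439 (minus) for Top2a, chr11:40733388-40733687 (minus) for Hmmr, chr7:135716330-135716629 (minus) for Mki67 and chr7:131560120-131560419 (plus) for Bub3, all in GRCm38.p6, while the submitters' processing notes name the build mm9.
Ccnb2: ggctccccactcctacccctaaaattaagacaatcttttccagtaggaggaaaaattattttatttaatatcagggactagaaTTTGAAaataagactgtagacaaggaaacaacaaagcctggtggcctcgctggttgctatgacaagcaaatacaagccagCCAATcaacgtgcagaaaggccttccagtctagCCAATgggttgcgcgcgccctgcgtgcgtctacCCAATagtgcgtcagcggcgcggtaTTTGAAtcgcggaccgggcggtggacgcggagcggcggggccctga
Ncapg: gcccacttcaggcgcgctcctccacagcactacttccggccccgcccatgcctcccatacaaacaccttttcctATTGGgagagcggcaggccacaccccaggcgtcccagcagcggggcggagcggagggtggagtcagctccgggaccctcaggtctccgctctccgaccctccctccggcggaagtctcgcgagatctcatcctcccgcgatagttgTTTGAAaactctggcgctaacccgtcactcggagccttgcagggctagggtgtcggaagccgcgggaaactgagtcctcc
Top2a: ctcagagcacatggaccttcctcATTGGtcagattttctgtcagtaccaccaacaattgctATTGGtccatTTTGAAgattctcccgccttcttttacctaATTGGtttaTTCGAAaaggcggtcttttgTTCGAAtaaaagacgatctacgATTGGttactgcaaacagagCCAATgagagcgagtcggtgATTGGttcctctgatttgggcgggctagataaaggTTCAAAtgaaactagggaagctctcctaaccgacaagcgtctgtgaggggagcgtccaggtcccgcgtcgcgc
Hmmr: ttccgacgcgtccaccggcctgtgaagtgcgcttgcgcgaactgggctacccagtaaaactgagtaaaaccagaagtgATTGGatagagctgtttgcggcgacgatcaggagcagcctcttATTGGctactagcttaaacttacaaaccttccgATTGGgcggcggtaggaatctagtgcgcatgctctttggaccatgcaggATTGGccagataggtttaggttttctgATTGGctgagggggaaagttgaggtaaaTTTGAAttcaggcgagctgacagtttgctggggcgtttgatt
Mki67: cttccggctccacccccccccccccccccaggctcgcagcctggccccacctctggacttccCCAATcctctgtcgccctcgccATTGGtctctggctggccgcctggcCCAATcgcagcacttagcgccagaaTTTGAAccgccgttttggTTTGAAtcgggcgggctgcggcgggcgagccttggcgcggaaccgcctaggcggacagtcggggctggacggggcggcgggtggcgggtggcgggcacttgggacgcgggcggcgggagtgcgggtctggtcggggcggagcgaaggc
Bub3: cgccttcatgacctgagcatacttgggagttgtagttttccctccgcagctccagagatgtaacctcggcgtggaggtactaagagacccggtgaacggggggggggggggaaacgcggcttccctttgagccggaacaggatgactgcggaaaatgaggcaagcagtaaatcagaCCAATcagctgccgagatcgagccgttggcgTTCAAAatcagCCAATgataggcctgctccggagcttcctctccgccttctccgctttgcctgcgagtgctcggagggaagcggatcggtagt

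Ccnb2 held 3 CCAAT matches and 2 CHR matches, 1 of them just after the start, and Top2a held 6 CCAAT and 4 CHR matches. Ncapg had 1 of each, and Hmmr had 5 CCAAT matches before a single CHR match. Bub3 held 2 CCAAT and 1 CHR match, so the letters were also present in members that were nearly level between the groups. The 30 members with a CHR match had a median log2 fold change of 0.80 (-0.34 to 2.29) and the 10 without one had 0.90 (0.08 to 1.88).

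**Figure D2:**
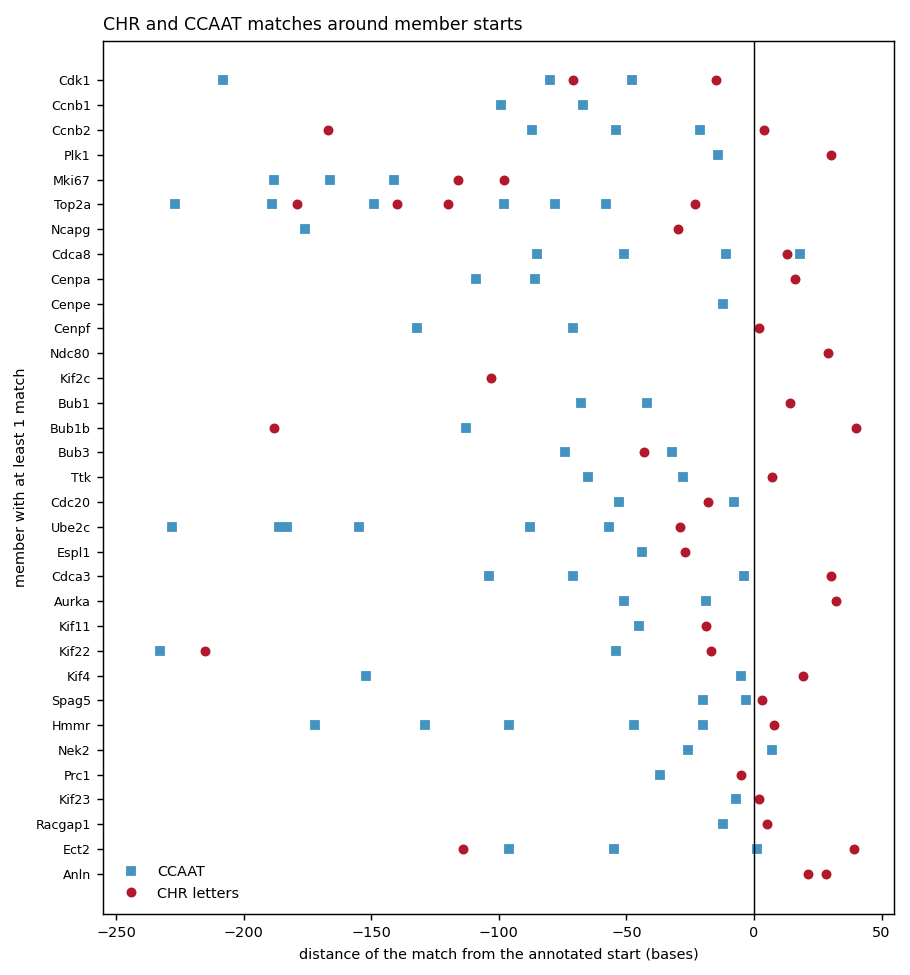
Position of each CHR match (circles) and CCAAT match (squares) relative to the annotated start, in bases, for the 33 of 40 members with at least 1 match. Most members have a CHR match close to the start, with CCAAT matches mostly before it.

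The kinase that starts mitosis and its switches had a median difference of 1.19 on the log2 scale over 8 genes, all positive (1.10 without mutant 1). The B cyclins, which activate CDK1, had the smallest p-values of this group. Ccnb2 was measured at 3.54, 4.83 and 3.98 CPM in the mutants (numbers 1, 2 and 3 throughout) against 1.46, 2.04 and 2.12 CPM in the wild types. The groups did not overlap, and each mutant was above each wild type. Group means were 4.12 ± 0.66 and 1.87 ± 0.36 CPM (SD, n = 3 each). The log2 fold change was 1.13 ± 0.32 (± SE here and for other log2 fold changes), with edgeR giving an unadjusted p of 0.00866 and an adjusted p of 0.737. Ccnb1 was 1.19, 1.84 and 0.99 CPM in the mutants and 0.18, 0.24 and 0.65 CPM in the wild types. These values also did not overlap, but they rested on 28 to 43 counts per mutant and 4 to 16 counts per wild-type library. Its log2 fold change was 1.88 ± 0.62 (unadjusted p = 0.0191, adjusted p = 0.737, edgeR).

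Cdk1, the catalytic partner of these cyclins, followed another order. It was 4.60, 1.20 and 5.04 CPM in the mutants and 1.69, 2.40 and 3.38 CPM in the wild types, so mutant 2 was the lowest of all libraries for Cdk1 (28 counts) and the highest for Ccnb1 (43 counts) and Ccnb2 (113 counts). The log2 fold change of Cdk1 was 0.54 with a 95% interval of -0.79 to 1.87, and 0.33 without mutant 1. Ccna2, the cyclin of S and G2 phase, was 5.18, 2.44 and 4.97 CPM against 1.14, 1.80 and 3.58 CPM, and its groups overlapped through mutant 2 and wild type 3. Plk1, a kinase that drives mitotic entry and cytokinesis, was 3.54, 0.98 and 2.72 CPM against 0.41, 1.36 and 1.06 CPM, with mutant 2 below wild types 2 and 3. Foxm1, a transcription factor of G2/M genes, was 6.86, 3.34 and 7.86 CPM against 2.24, 3.32 and 6.68 CPM (log2 fold change 0.56, interval -0.58 to 1.70). Mutant 2 and wild type 2 thus had nearly the same Foxm1 level. Of the remaining genes, Melk, a kinase of dividing cells, differed by 1.55 ± 0.61 (unadjusted p = 0.0377, edgeR). Cdc25c, the phosphatase that activates CDK1, was 0.70, 1.24 and 0.56 CPM against 0.32, 0.40 and 0.33 CPM, without overlap but from 7 to 29 counts.

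The 4 genes of chromosome structure were all positive, with a median of 1.18 (1.05 without mutant 1). Mki67, which encodes the Ki-67 protein that coats mitotic chromosomes and is the usual stain for cycling cells, was 31.7, 15.02 and 29.3 CPM in the mutants. In the wild types it was 5.44, 11.2 and 15.4 CPM, so mutant 2 stood just inside the wild-type range. Its log2 fold change was 1.24 ± 0.41 (unadjusted p = 0.0186, edgeR), and 1.05 without mutant 1. Top2a, the topoisomerase that untangles sister chromatids, was 18.4, 12.2 and 19.9 CPM against 5.62, 5.81 and 11.8 CPM. Here mutant 2 lay just above wild type 3, and the groups did not overlap (log2 fold change 1.12 ± 0.33, unadjusted p = 0.0115, edgeR). Ncapg, a subunit of condensin I, had the largest log2 fold change of the members, 2.29 ± 0.65 (interval 0.77 to 3.81, unadjusted p = 0.00900, adjusted p = 0.737, edgeR). It was even across the mutants at 1.59, 1.67 and 1.45 CPM and was 0.091, 0.28 and 0.57 CPM in the wild types, from 2, 7 and 14 counts. The locus overlaps that of Lcorl, and the handling of reads in the overlap is not stated in those sources that were used. Ncaph, another subunit of the same complex, did not share the evenness: it was 2.44, 0.47 and 1.83 CPM against 0.23, 0.92 and 1.30 CPM (log2 fold change 0.95, interval -0.90 to 2.80, and 0.50 without mutant 1).

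**Figure D3:**
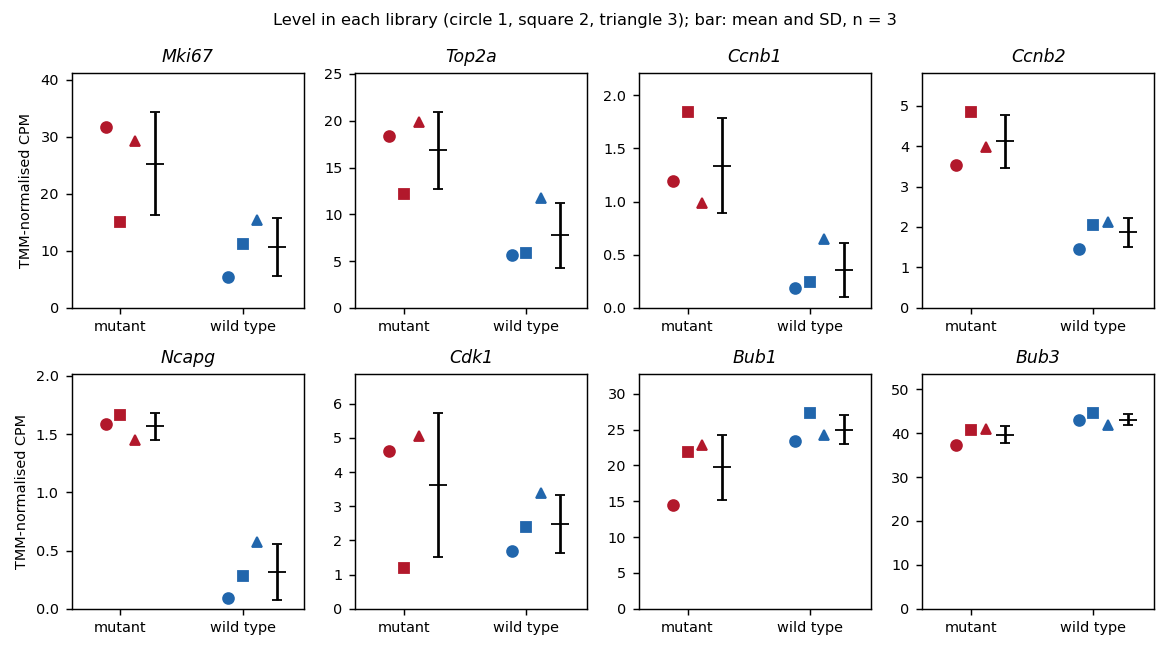
TMM-normalised CPM of 8 members in each library (mutant in red, wild type in blue; circle, square and triangle for numbers 1, 2 and 3) with the mean and SD beside the points (n = 3). Mutant 2 has the highest Ccnb1, Ccnb2 and Ncapg but the lowest Cdk1, and Bub1 and Bub3 are slightly lower in the mutants.

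The chromosomal passenger complex, which corrects wrong attachments and later directs cytokinesis, has 4 subunits among the members. All 4 had positive log2 fold changes, with a median of 0.97, or 0.58 without mutant 1. Cdca8, which encodes borealin, was 2.68, 1.84 and 2.997 CPM against 0.59, 0.48 and 1.38 CPM, without overlap (1.61 ± 0.51, unadjusted p = 0.0163, edgeR). Incenp, the scaffold of the complex, was less variable, at 10.2, 8.09 and 7.79 CPM against 7.59, 6.69 and 5.46 CPM. Its groups were apart but close, with a log2 fold change of 0.40 ± 0.21. Aurkb, the kinase of the complex, was 2.87, 0.39 and 2.19 CPM against 0.87, 0.48 and 0.98 CPM, and Birc5, which encodes survivin, was 2.26, 0.81 and 1.83 CPM against 0.50, 0.36 and 2.12 CPM. Mutant 2 was the lowest library for Aurkb, and wild type 3 reached the mutant level for Birc5, so the intervals of both spanned 0 (-0.49 to 2.94 and -1.07 to 2.50). Their log2 fold changes were 1.23 and 0.72, or 0.74 and 0.42 without mutant 1.

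All 6 centromere and kinetochore genes had positive log2 fold changes, between 0.78 and 1.16, with a median of 0.95 (0.71 without mutant 1). Kif2c, which encodes the microtubule-depolymerising motor MCAK, was 1.71, 2.10 and 2.54 CPM against 0.64, 1.08 and 1.10 CPM, without overlap (1.16 ± 0.41, unadjusted p = 0.0236, edgeR). Cenpe, a motor that carries chromosomes to the spindle equator, was 6.13, 2.48 and 4.87 CPM against 1.19, 2.40 and 2.73 CPM. Cenpf, a large kinetochore protein, was 6.89, 3.77 and 6.63 CPM against 1.87, 3.12 and 4.28 CPM. In both, mutant 2 lay within the wild-type range and mutants 1 and 3 above it. The centromeric histone gene Cenpa and the NDC80 complex genes Ndc80 and Nuf2 differed by 0.78, 0.99 and 0.83 (0.50, 0.62 and 0.68 without mutant 1), with overlapping groups and intervals that spanned 0.

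The spindle checkpoint genes did not share the pattern. Their median log2 fold change was 0.08 (0.07 without mutant 1), and 3 of 5 were positive. Bub3, which docks checkpoint proteins at kinetochores, was 37.3, 40.8 and 40.9 CPM in the mutants and 42.9, 44.5 and 41.9 CPM in the wild types. The mutants were all slightly lower, with a log2 fold change of -0.12 (interval -0.31 to 0.07, and -0.08 without mutant 1). Bub1, a checkpoint kinase, was 14.5, 21.9 and 22.9 CPM against 23.4, 27.3 and 24.3 CPM. Mutant 1 was the lowest library for Bub1, although it was the highest for 20 other members, and the groups did not overlap (log2 fold change -0.34 ± 0.18, unadjusted p = 0.0958, edgeR; -0.16 without mutant 1). With the number as a block, Bub1 had a log2 fold change of -0.36, an unadjusted p of 0.0440 and an adjusted p of 0.717 in edgeR. Bub1b and Mad2l1, both parts of the complex that inhibits the APC/C, differed by 0.08 (interval -0.36 to 0.52) and 0.10 (-0.30 to 0.50, and 0.17 without mutant 1). Ttk, the kinase that switches the checkpoint on, had only 6 to 32 counts per library and a log2 fold change of 0.69 (-0.66 to 2.04).

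The 5 genes of anaphase and mitotic exit were all positive, with a median of 0.44, or 4 of 5 with a median of 0.18 without mutant 1. Cdc20, the activator of the APC/C in mitosis, was 13.9, 12.8 and 13.3 CPM against 9.96, 10.05 and 14.3 CPM, with a log2 fold change of 0.22 (interval -0.19 to 0.62). The Cdc20 locus overlaps Elovl1, a fatty acid elongase gene. Pttg1, which encodes securin, was 23.7, 15.4 and 23.7 CPM against 15.8, 15.4 and 28.3 CPM, so its highest library was a wild type (log2 fold change 0.08, and -0.02 without mutant 1). Ube2c, the ubiquitin-conjugating enzyme of the APC/C, was 3.23, 1.498 and 2.64 CPM against 1.28, 1.40 and 1.59 CPM. Mutant 2 was again within the wild-type range for Ube2c. Cdca3, which takes part in degrading an inhibitor of mitotic entry, was 4.79, 2.14 and 4.80 CPM against 0.41, 1.76 and 2.85 CPM. Its wild types ran from 9 to 70 counts, and its interval was -0.38 to 2.81. Espl1, which encodes separase, differed by 0.44 (-0.74 to 1.62), and by 0.18 without mutant 1.

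All 9 spindle and centrosome genes had positive log2 fold changes with a median of 0.98, or 8 of 9 with a median of 0.72 without mutant 1. Hmmr, a spindle assembly protein, was 3.38, 3.25 and 4.13 CPM against 1.28, 1.60 and 2.24 CPM, without overlap (1.07 ± 0.34, unadjusted p = 0.0165, edgeR; 1.11 without mutant 1). Spag5, which encodes astrin, was 4.57, 2.74 and 4.23 CPM against 1.23, 1.96 and 2.65 CPM, with mutant 2 just above wild type 3. Aurka, the centrosomal Aurora kinase, was 2.71, 1.33 and 2.33 CPM against 1.87, 1.88 and 2.16 CPM. Mutants lay on either side of the narrow wild-type range of Aurka, and its sign turned without mutant 1 (0.11 with all libraries, -0.10 without). Nek2, another centrosomal kinase, was 8.93 CPM in mutant 1 against 1.60 to 3.28 CPM elsewhere, and its log2 fold change was 1.07 with mutant 1 and 0.18 without it. Tpx2, Nusap1, Kif11, Kif22 and Kif4, which act in spindle assembly and chromosome movement, differed by 0.55 to 1.05. Kif11 and Kif22, at 0.55 and 0.73, were at 0.33 and 0.30 without mutant 1. Nusap1 did not overlap between the groups (3.96 to 4.66 CPM against 1.19 to 3.38 CPM).

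The 6 genes of the spindle midzone and cytokinesis were all positive, with a median of 0.66 (0.61 without mutant 1). Kif20a, a kinesin needed for cytokinesis, was 6.01, 4.88 and 6.45 CPM against 1.65, 3.60 and 3.58 CPM, without overlap (0.97 ± 0.36, unadjusted p = 0.0295, edgeR). Its locus overlaps Cdc23 and Brd8. Racgap1, a subunit of centralspindlin, was 9.27, 5.22 and 7.33 CPM against 2.83, 3.77 and 5.74 CPM (0.82 ± 0.34, unadjusted p = 0.0470, edgeR), and its kinesin partner Kif23 differed by 0.82 ± 0.41. Prc1, which bundles midzone microtubules, was 15.7, 19.9 and 23.9 CPM against 7.91, 14.7 and 20.4 CPM. Wild type 3 exceeded mutants 1 and 2 for Prc1, but each mutant was above the wild type of its own number, with log2 ratios of 0.98, 0.43 and 0.23. The unadjusted edgeR p of Prc1 was 0.198, and 0.0212 with the number as a block (adjusted p = 0.696). Anln and Ect2, which build the contractile ring and activate RhoA, differed by 0.51 and 0.39, with overlapping groups. Wild type 1 was the lowest library for all 6 genes of this role.

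**Figure D4:**
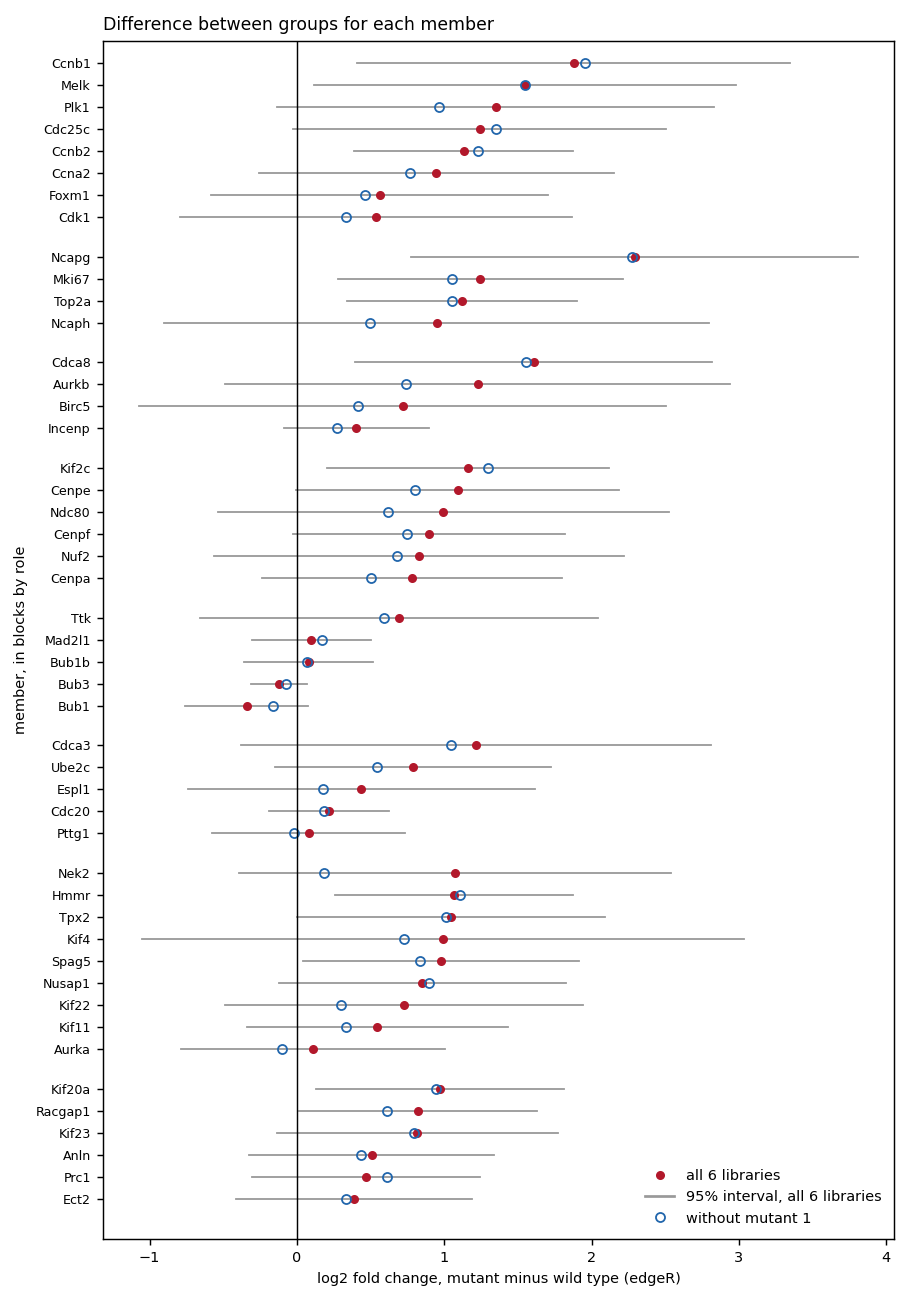
edgeR log2 fold change (mutant minus wild type) of each member with all 6 libraries (filled, with the 95% interval) and without mutant 1 (open), in blocks by role. Most points lie to the right of 0, most intervals cross or come close to it, and the spindle checkpoint block lies around 0 except for Ttk.

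Mutant 2 was the highest library for 5 of 47 members, where it was the highest for 17.8% of all genes, and these were Ccnb1, Ccnb2, Cdc25c, Ncapg and Nusap1. It was the lowest for 4 members, where it was the lowest for 21.1% of all genes, and these were Cdk1, Aurkb, Espl1 and Aurka. Both shares of the members were below those of all genes, the genes were singled out after their values were seen, and most had under 100 counts in mutant 2. For Ncapg, mutants 1 and 2 were close (1.59 and 1.67 CPM). Mutant 2 was below wild type 3 for 34 of 47 members.

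The other genes of the pathway were read from the same fit. Of 71 further G2/M and mitosis genes, 67 were tested and 59 had positive log2 fold changes, where 51.1% of all tested genes did. The median of this list was 0.36 (0.37 without mutant 1). For this list, edgeR called 0 and had 9 higher (3.69% of all genes) and 0 lower (2.89%) at an unadjusted p under 0.05. The smallest p was that of Smc4, a core condensin subunit, at 81.1, 85.1 and 74.02 CPM in the mutants and 54.2, 57.3 and 63.9 CPM in the wild types. These values did not overlap (log2 fold change 0.45 ± 0.09, edgeR adjusted p = 0.737), and DESeq2 called Smc4 with all libraries (adjusted p = 0.0344) and called no gene of this list without mutant 1. Arhgap11a, a GTPase-activating protein of dividing cells, was 17.4, 15.7 and 19.3 CPM against 7.22, 11.1 and 11.9 CPM. Aspm, a spindle pole protein, and Cit, a kinase of cytokinesis, differed by 1.61 and 1.75, the latter by 1.16 without mutant 1.

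DNA replication and S-phase genes differed less, with a median of 0.17. Of 43 tested, 33 were positive, where 51.1% of all genes were. For this list, edgeR called 0 and had 4 higher (3.69% of all genes) and 0 lower (2.89%) at an unadjusted p under 0.05. The summed level of the S-phase genes was 509, 435 and 546 CPM in the mutants and 422, 444 and 511 CPM in the wild types. Mutant 2 lay below wild types 2 and 3. The smallest p-values were those of the helicase gene Mcm3 (0.61), the ribonucleotide reductase gene Rrm2 (1.09) and the origin licensing genes Cdc6 (1.33) and Orc1 (1.64), as log2 fold changes. Orc1 rested on 3 to 9 counts per wild-type library. The difference between the S-phase list and the mitotic list was not tested.

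The APC/C core subunits, which are needed in mitosis but are made throughout the cycle, differed little as a list. Of 12 tested, 5 were positive and 7 negative, where 51.1% of all genes were positive. The median was -0.03 and the range -0.25 to 0.15. For this list, edgeR called 0, as over all genes. It had 0 higher (3.69% of all genes) and 0 lower (2.89%) at an unadjusted p under 0.05, which in so short a list is near those shares. Cdc16, Anapc13, Anapc11 and Anapc7 had the smallest p. Cdc16 was 39.5, 32.6 and 40.4 CPM in the mutants and 44.01, 45.2 and 42.3 CPM in the wild types. Its mutants were lower without overlap, as for 6.43% of all genes, with a log2 fold change of -0.22. Anapc13 differed by -0.24 (-0.15 without mutant 1), Anapc11 by -0.25 and Anapc7 by 0.13. A CHR match was present in 1 of 11 APC/C promoter windows (9.09%), against 19.4% of all genes with a window. Whether this bears on the APC/C levels was not tested.

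Among 22 regulators of G2/M transcription, 14 were positive, where 51.1% of all genes were. The median was 0.05 (0.10 without mutant 1). For this list, edgeR called 0 and had 3 higher (3.69% of all genes) and 0 lower (2.89%) at an unadjusted p under 0.05. E2f8 and E2f7, atypical E2F repressors that are themselves made in cycling cells, had the smallest p-values of this list. E2f8 was 1.74, 1.33 and 1.80 CPM against 0.27, 0.48 and 0.53 CPM (1.91 ± 0.46, adjusted p = 0.737, edgeR), and E2f7 was 1.65, 1.24 and 1.13 CPM against 0.46, 0.48 and 0.57 CPM. In both genes the mutants were higher without overlap, as for 5.23% of all genes, and mutant 2 lay with the other mutants. The wild-type libraries held only 6 to 13 counts of E2f8 and 10 to 14 of E2f7. The other named regulators were Rb1, the retinoblastoma gene (0.25), and E2f1, an activator of S-phase genes (0.73). Their mutants were also higher without overlap, but by narrow gaps. Mutant 2 had 30.1 CPM of Rb1 against 29.3 CPM in wild type 2, and 2.70 CPM of E2f1 against 2.65 CPM in wild type 3. Of 6 tested CDK inhibitors, 2 were positive and 4 negative, where 51.1% of all genes were positive. The median was -0.09, and edgeR called 0, as over all genes. It had 0 higher (3.69% of all genes) and 0 lower (2.89%) at an unadjusted p under 0.05, which in so short a list is near those shares. Cdkn1a, which encodes p21, was 72.6, 95.6 and 103.3 CPM against 73.2, 139.03 and 161.1 CPM. The lowest Cdkn1a levels were those of mutant 1 and wild type 1. How Cdkn1a relates to the level of the mitotic members was not tested. Cdkn1b, Cdkn2d and Cdkn1c differed by -0.12, 0.31 and -0.33. Without mutant 1, Cdkn2d differed by 0.0013 and Cdkn1c by -0.70.

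**Figure D5:**
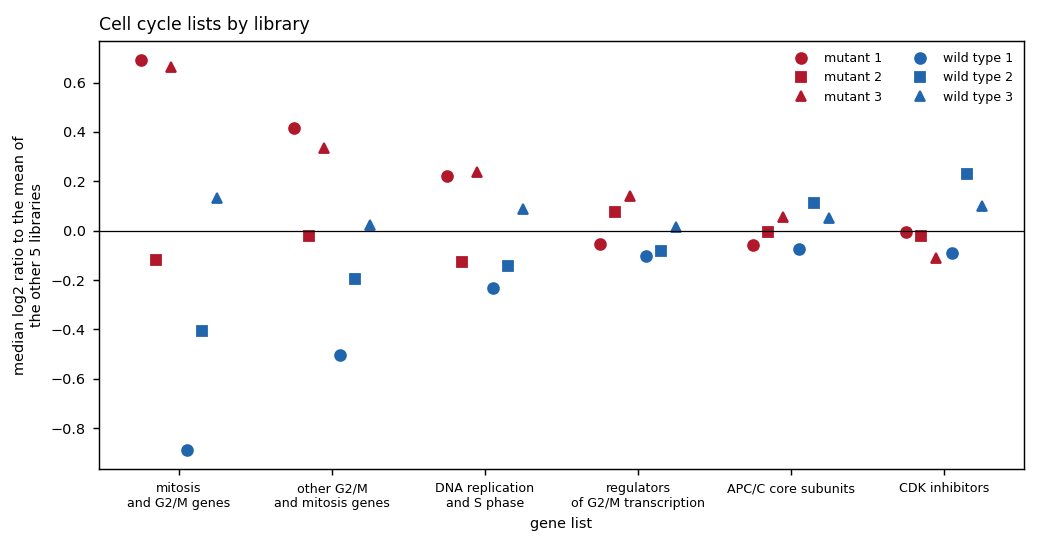
Median over each gene list of the log2 ratio of a library to the mean of the other 5 (mutant in red, wild type in blue; circle, square and triangle for numbers 1, 2 and 3). The mitosis and G2/M genes spread from -0.89 in wild type 1 to 0.69 in mutant 1, the S-phase genes from -0.23 to 0.24, and the APC/C core subunits from -0.07 to 0.11.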

How the data were processed

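Gene-level read counts of the 6 libraries were used as deposited, 1 table per library. Base calling with CASAVA, the build mm9 and DESeq2 are named per the submitters' processing notes. For the aligner, the counting program, the annotation and strandedness, nothing is stated in the sources used, so reads of overlapping genes may be shared. Besides Ncapg, Cdc20 and Kif20a, the members Ccna2, Aurka, Nusap1, Prc1, Ect2 and Anln also overlap another gene among the counted symbols. The sequencer is named differently in the labels and in the design text.

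From these counts, edgeR 4.0.16 in R 4.3.3 was fitted to both groups (filterByExpr, TMM factors, quasi-likelihood test, Benjamini-Hochberg over 12899 genes). limma 3.58.1 and DESeq2 1.42.0 were alternatives, as were other filters, scalings and leaving out each library. Levels are TMM-normalised CPM unless stated, and log2 fold changes are edgeR's. Their standard errors and intervals are not edgeR output. They were calculated from each log2 fold change and its quasi-likelihood test statistic. A count of 3 was 0.0977 to 0.133 CPM, depending on the library, and 13 members had under 10 counts in at least 1 library.

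The members and all gene lists were chosen with earlier results of these data known. Levels in every library are given for a set of core members and the 2 smallest p of each role, and for up to 4 genes of each other list. Cdc25c, Ncaph, Pttg1, Nek2 and Nusap1 were added after their values were seen. Same-numbered mutants and wild types deviated together (correlations of 0.25, 0.16 and 0.16 over genes, others -0.21 to 0.08). The numbers were therefore treated as pairs in an alternative, on the data alone, since the labels name no shared litter, day or batch. Replicates of a group differed by more than sampling noise.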

Additional observations from a re-analysis of the deposited data

How the results depend on the processing

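Over 17 alternatives, 3 of them chosen after seeing the data (the joint removals and DESeq2 without mutant 1), 43 of 47 members kept the sign of their log2 fold change wherever they were tested. Over all genes, edgeR called 0 with all libraries, with 476 higher and 373 lower at an unadjusted p under 0.05. DESeq2 called 38, edgeR called 0 to 1 with single libraries left out (1 without wild type 3) and 3 without mutant 1 and wild type 1, and DESeq2 called 22 without mutant 1. None of these calls was a member. In the further G2/M list, DESeq2 called 1 gene, Smc4. With number as a replicate block, 0 genes were called, 13 members were higher and 1 (Bub1) lower at an unadjusted p under 0.05, and the median log2 fold change of the members was 0.89. The block changed no call of a member at an adjusted p under 0.05. The count of members higher at an unadjusted p under 0.05, 13 in edgeR with all libraries, was 21 in limma-voom, 4 to 20 with single libraries left out, 6 without mutant 1 and wild type 2 (2.2% of all genes), and 7 without mutant 1 and wild type 1 (2.73%). The members' median was 0.62 to 1.21 with single libraries left out, 0.59 without mutant 1 and wild type 2, and 0.47 without mutant 1 and wild type 1.

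The sign turned for 4 members, and the cause was not tested. With single libraries left out, Bub1b was -0.082 (without wild type 1) to 0.22, Pttg1 -0.078 (without wild type 2) to 0.42, and Aurka -0.10 (without mutant 1) to 0.35. Pttg1 was also negative without mutant 1 (-0.017), mutant 3 (-0.019) or wild type 1 (-0.06). Without mutant 1 and wild type 1, Bub1b was -0.090, Espl1 -0.038, Pttg1 -0.15 and Aurka -0.14. Without mutant 1 and wild type 2, Pttg1 was -0.17 and Aurka -0.13. In DESeq2 without mutant 1, Pttg1 was -0.015 and Aurka -0.10. With 3 libraries a group and 2 to 52 counts in genes such as Ncapg, the depth limits the precision of the low members.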

Other observations

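The promoter windows of the cell cycle lists held different letters. The E2F site letters TTTGGCGC or TTTCGCGC, searched on both strands, were present in 10 of 34 S-phase gene windows (29.4%), in 3 of 18 windows of the G2/M regulators (16.7%) and in 1 of 40 member windows (2.5%), against 0.833% of all genes. The CHR letters showed the opposite order, in 6 of 34 S-phase windows (17.6%) and 30 of 40 member windows (75%), against 19.4% of all genes. Among the 53 windows of further G2/M genes, 34 (64.2%) held CHR letters and 5 (9.43%) held E2F letters. CCAAT was frequent in both programmes, at 21 of 34 S-phase windows (61.8%) and 30 of 40 member windows. These shares describe letters in 300 bases and were not tested against the expression values.

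Member levels spanned a wide range within the same libraries. The lowest count of a member in a library was 2 (Ncapg, wild type 1) and the highest was 1225 (Bub3, mutant 1). The members with the most counts, Bub3, Bub1, Pttg1 and Mki67, had differences of unequal size and sign: Mki67 differed between the groups by 1.24 on the log2 scale, Pttg1 by 0.08, Bub3 by -0.12 and Bub1 by -0.34.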
